A study of Mus musculus with 22 samples.

Results

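Spleens of 4 mice given pristane together with sheep red blood cells (SRBC) were compared with spleens of 5 mice given SRBC alone, 9 of the series' 22 mice. They were chosen by their titles: 2 pristane mice and 2 SRBC-alone mice carried a cyclin D1 transgene and lacked Bim (Bcl2l11, a pro-death member of the BCL2 family) in their B cells, and 2 pristane mice and 3 SRBC-alone mice carried the transgene without the deletion. Every mouse of both groups, the SRBC-alone controls included, carried the transgene and was stimulated with SRBC, and none of the 9 was classed as diseased. RNA of whole frozen spleen was hybridised to a 1-colour Illumina bead array, 1 array per mouse. The promoter of the transgene, the means of deleting Bim, the dose, route and time of pristane, and the mice's age and strain were not stated in the labels used here. Mice are named here by genotype, stimulus and the number in their title. Values are log intensities as the authors deposited them, taken as base 2 from their range, so a difference of 1 is a doubling of intensity. The labels do not say whether each mouse was housed or processed apart, so p-values measure the spread between these spleens.

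Pristane is a mineral-oil hydrocarbon that causes chronic inflammation of the peritoneal cavity in mice and is used to provoke plasma cell tumours and lupus-like autoimmunity. It is known for raising type I interferon, made largely by immature monocytes that sense RNA through Toll-like receptors. Interferon acts through STAT and IRF transcription factors on a promoter element, the interferon-stimulated response element, and turns on antiviral genes such as the oligoadenylate synthetases. The mouse spleen also makes red cells, platelets and granulocytes outside the bone marrow, and does so more when the animal is inflamed.

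The promoters of Oas1g and Isg15 are shown because both genes were high after pristane and both hold the core of that element. They are RefSeq windows of build GRCm38.p6, from 250 bases before to 50 after the transcription start, read 5′ to 3′ on the gene's strand. Capitals mark every match to GAAANNGAAA, searched on both strands. Matches were allowed to overlap, and in both genes they do. The Oas1g window is chr5:120887564-120887863 on the minus strand and the Isg15 window is chr4:156200769-156201068 on the minus strand.
Oas1g: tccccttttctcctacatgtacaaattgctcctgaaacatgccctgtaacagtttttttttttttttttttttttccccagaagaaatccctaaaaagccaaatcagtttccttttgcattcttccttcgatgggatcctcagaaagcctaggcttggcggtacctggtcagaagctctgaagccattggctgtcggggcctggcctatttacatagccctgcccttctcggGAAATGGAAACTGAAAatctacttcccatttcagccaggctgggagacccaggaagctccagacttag
Isg15: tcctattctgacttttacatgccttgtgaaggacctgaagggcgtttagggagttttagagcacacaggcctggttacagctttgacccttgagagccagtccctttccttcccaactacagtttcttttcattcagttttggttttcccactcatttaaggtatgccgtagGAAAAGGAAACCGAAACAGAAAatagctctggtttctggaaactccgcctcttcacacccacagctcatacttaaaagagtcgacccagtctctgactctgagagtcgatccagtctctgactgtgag
The Oas1g window holds 2 matches and the Isg15 window 3. Of all 32851 promoter windows in the table, 1131 (3.44%) hold at least 1 match. Of the 27 measured genes of the interferon list used below, 19 have a window, and 13 of these 19 (68.4%) hold a match. Among list members past the threshold the share was lower, 1 of the 4 with a window in the fit of all 9 mice (25%) and 5 of 10 (50%) in the fit without the library described next. The windows of Irf7, Oasl1 and Ifit2, which rose as described below, hold none of these letters, and no window was listed for Usp18.

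The library labelled transgene-only pristane 1 stood apart from the other spleens before any comparison of stimuli. Nkx2-3, a transcription factor needed to form the spleen, was at 6.56 in it, the median of the array being 6.55, against 8.15 to 9.03 in the series' other 21 mice. Slc40a1, the iron exporter of red pulp macrophages, was at 8.47 against 11.55 to 12.64 in the other 21. Hba-a1, a globin, was at 9.65 against 14.04 to 14.40, and Alas2, the haem synthesis enzyme of red cell precursors, at 6.55 against 10.08 to 13.33. Of 9 genes of splenic red pulp, red cells and splenic stroma and surface looked at for this purpose, 8 were lower in that library than in any other mouse, Upk3b being the exception. Glycam1, a mucin of the high endothelial venules of lymph nodes, was at 11.97 in it against 6.39 to 9.07 in the other 21. All 6 genes of lymph node vessels, matrix and body position that were looked at were higher there than in any other mouse: Glycam1, Lyve1, Ccl21a, Cldn11, Lum and Hoxc6. These 15 genes were chosen after their values were seen. The defining spleen and red cell genes Nkx2-3 and Alas2 were thus at background in a library labelled spleen, so the counts and list medians below are given with all 9 mice and without that library. Single genes of the blood cell lists are given from the fit of the other 8 mice, and none of them passed with all 9.

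**Figure D1:**
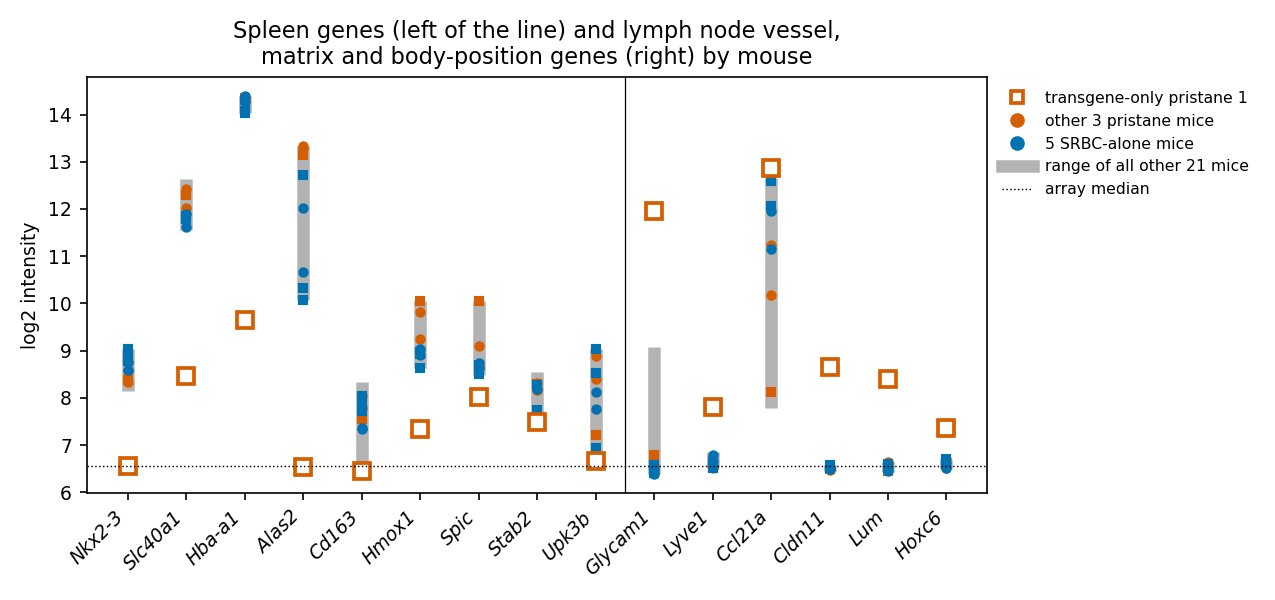
Log2 intensity (y axis) of 9 spleen genes and 6 lymph node vessel, matrix and body-position genes (x axis). The open square is the library labelled transgene-only pristane 1, filled orange points are the other 3 pristane mice, blue points the 5 SRBC-alone mice (circles Bim-deleted, squares transgene-only), the grey bar spans the series' other 21 mice and the dotted line is the array median. The open square lies outside the grey bar for every gene except Upk3b.

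Stimulus and sex could not be told apart within the 9 mice. Xist, transcribed from the inactive X chromosome of females, was at 7.89, 8.63, 8.11 and 8.36 in Bim-deleted pristane 1 and 2 and transgene-only pristane 1 and 2, against 6.46 to 6.53 in the 5 SRBC-alone mice. Eif2s3y, a Y-linked gene, was at 6.45 to 6.58 in the pristane mice, against 7.93 to 8.49 in the SRBC-alone mice. All 4 pristane mice thus carried the female pattern and all 5 SRBC-alone mice the male one. Values of Xist-high mice without pristane are therefore given beside the interferon genes, Alas1, Gpr84, Gdf3 and the levels of the blood cell lists. Among disease-free mice these were transgene-only irradiated mice 1 and 3, with Xist at 8.25 and 7.49.

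With all 9 mice and genotype as a covariate, 17 of 19339 features passed an adjusted p of 0.05 (0.0879%, limma with Benjamini-Hochberg adjustment). In the pristane mice 11 rose (0.0569% of features) and 6 fell (0.031%). An unadjusted p under 0.05 was reached by 3167 features, where 967 would be expected by chance. In 351 features (1.81%) every pristane mouse was above every SRBC-alone mouse, and in 573 (2.96%) every pristane mouse was below. Of the 17, 13 were named genes: 5 interferon-stimulated genes, Alas1, Gpr84, Napa and Xist rose, and Eif2s3y, Zfp748, Hs3st3b1 and Mapk12 fell. All 17 passed in the same direction without the library labelled transgene-only pristane 1, where 2853 features passed, 1513 of them higher (7.82%) and 1340 lower (6.93%).

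Interferon-stimulated genes were higher in the pristane mice. The list held 31 genes, of which 27 were measured. Of the 27, 5 rose and none fell with all 9 mice, and 24 were higher on average. In 11 of the 27 every pristane mouse was above every SRBC-alone mouse, against the 1.81% of all features given above. The median difference over the 27 was 0.39, against -0.003 over all features. Without the library labelled transgene-only pristane 1, 13 of the 27 rose, none fell, and the median was 0.43. The list's mean level, relative to the 9-mouse mean, was 0.46 and 0.42 in Bim-deleted pristane 1 and 2 and 0.04 and 0.51 in transgene-only pristane 1 and 2, against -0.35 to -0.20 in the SRBC-alone mice.

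Usp18, which removes the ubiquitin-like protein ISG15 from its targets and dampens interferon receptor signalling, was at 9.92 and 9.86 in the Bim-deleted and 9.90 and 10.30 in the transgene-only pristane mice. It was at 8.30 and 8.25 in the Bim-deleted and 8.54, 9.02 and 8.80 in the transgene-only SRBC-alone mice. The groups did not overlap, and the library that lacked the spleen genes was as high as the others. The difference was 1.45 ± 0.12 (SE, a 2.73-fold rise, adjusted p = 0.0158). Means were 9.995 ± 0.20 (SD, n = 4) in pristane and 8.58 ± 0.33 (SD, n = 5) in SRBC-alone mice.

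Oas1g, an oligoadenylate synthetase that answers double-stranded RNA, was at 10.09, 10.31, 9.78 and 10.77 in Bim-deleted pristane 1 and 2 and transgene-only pristane 1 and 2, against 8.05 to 8.66 in the SRBC-alone mice. Its rise of 1.93 ± 0.21 was the largest among the named genes that passed (3.82-fold, adjusted p = 0.0401). Irf7, the transcription factor that amplifies type I interferon production, was at 8.84, 8.59, 8.42 and 9.06 in the same order, against 7.11 to 7.63 (difference 1.49 ± 0.16, adjusted p = 0.0385). In both genes transgene-only pristane 1 was the lowest and transgene-only pristane 2 the highest of the pristane mice, and all 4 were above every SRBC-alone mouse. Oasl1, an oligoadenylate synthetase-like protein known in mice to restrain translation of Irf7, was at 7.70 to 8.03 in pristane mice, against 6.88 to 7.18 in SRBC-alone mice (difference 0.86 ± 0.07, adjusted p = 0.0125). Ifit2, an RNA-binding antiviral protein, was at 7.587 to 7.997, against 7.23 to 7.56 (difference 0.41 ± 0.04, adjusted p = 0.0385). For each of these 5 genes the exact two-sided permutation p over the 9 mice was 0.0159, the smallest that 4 against 5 mice allow. Every gene whose groups do not overlap gets that value, so it adds nothing to the ranges given.

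**Figure D2:**
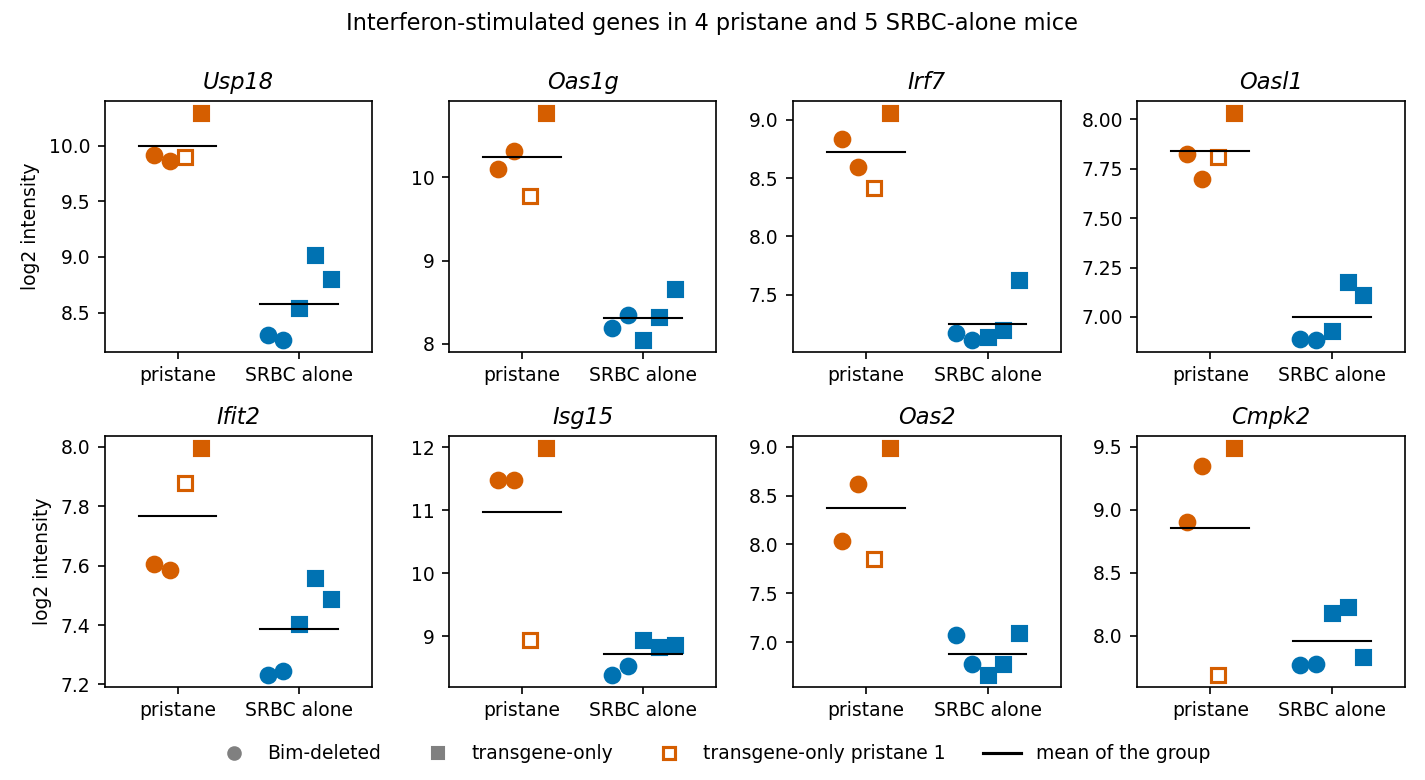
Log2 intensity (y axis, a separate scale for each gene) of 8 interferon-stimulated genes in 4 pristane mice (left, orange) and 5 SRBC-alone mice (right, blue). Circles are Bim-deleted and squares transgene-only mice, the open square is the library labelled transgene-only pristane 1 and bars are group means. That library lies with the other pristane mice for Usp18, Oasl1 and Ifit2, level with the highest SRBC-alone mouse for Isg15 and just below the lowest for Cmpk2.

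Other members were split by that library. Isg15, the ubiquitin-like modifier itself, was at 11.48 and 11.48 in the Bim-deleted and 8.94 and 11.99 in the transgene-only pristane mice, against 8.38 to 8.94 in the SRBC-alone mice. Transgene-only pristane 1 was thus level with the highest SRBC-alone mouse, while the other 3 pristane mice were above all of them. The difference of 2.24 did not pass with all 9 mice (adjusted p = 0.213), and was 3.06 ± 0.05 without that library (adjusted p = 4.56e-06). Cmpk2, a nucleotide kinase whose gene neighbours Rsad2, was at 8.91 and 9.35 in the Bim-deleted and 7.69 and 9.49 in the transgene-only pristane mice, against 7.77 to 8.23 in the SRBC-alone mice. Without the library it rose by 1.38 ± 0.13 (adjusted p = 0.00352). Oas2, a further synthetase, was above every SRBC-alone mouse in all 4 (7.86 to 8.99, against 6.66 to 7.09), did not pass with all 9 mice (difference 1.501, adjusted p = 0.125) and rose by 1.72 ± 0.22 without the library (adjusted p = 0.00585). Oasl2, Oas3, Oas1a, Rtp4 and Rsad2 also rose in the 8 mice. Rsad2 spread widely in the SRBC-alone mice, from 8.92 to 11.58. It was at 8.04 in transgene-only pristane 1 and at 12.92 to 13.09 in the other 3 pristane mice.

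The rise did not extend to every interferon-stimulated gene. The guanylate-binding protein genes Gbp2 and Gbp3 differed by -0.24 and 0.12 with all 9 mice and by -0.48 and -0.04 without the library, and passed in neither fit. Stat2, a subunit of the factor that binds the response element, differed by 0.05 with all 9 mice and 0.01 without the library, and the RNA sensor gene Ddx58 by -0.06 and -0.12. Mx1 and Xaf1 were near the array median of 6.55 in all 9 mice, between 6.495 and 6.641 for Mx1 and between 6.47 and 6.60 for Xaf1. Cxcl10, a chemokine induced by interferon, was at 7.93, 7.22, 7.82 and 7.10 in the pristane mice and 7.02 to 7.51 in the SRBC-alone mice, so the groups overlapped.

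In transgene-only irradiated mice 1 and 3 Usp18 was at 8.33 and 8.49, Irf7 at 7.27 and 7.30, Oas1g at 8.29 and 8.19 and Oasl1 at 6.99 and 7.18, all within the range of the SRBC-alone mice apart from Oasl1 in mouse 3, which was level with its top. The single diseased pristane mouse, Bim-deleted and Xist-high, was below all 4 disease-free pristane mice, with Usp18 at 8.82, Irf7 at 7.69, Oas1g at 9.09, Oasl1 at 7.05 and Ifit2 at 7.13. Its Isg15, at 10.17, was below 3 of the 4, and its Irf7 and Oas1g were above the disease-free SRBC-alone mice. Diseased Bim-deleted mice given SRBC alone, all 3 Xist-high, had Usp18 at 8.48 to 8.91 and Irf7 at 7.37 to 7.99. Diseased irradiated mice 1 and 3, also Xist-high, had Usp18 at 9.52 and 9.11 and Oas1g at 9.28 and 9.07, above the disease-free SRBC-alone mice and below the 4 pristane mice. Isg15 and Ifit2 overlapped more. Isg15 was at 10.36 to 10.84 in these diseased SRBC-alone mice and at 11.585 and 9.685 in these diseased irradiated mice, all above the disease-free SRBC-alone mice, and in diseased irradiated mouse 1 above both Bim-deleted pristane mice. Ifit2 was at 7.72 in diseased irradiated mouse 3 and 7.66 in diseased SRBC-alone mouse 1, above both Bim-deleted pristane mice. A further fit took the 14 other disease-free mice, leaving out the library lacking spleen genes, with each mouse's Xist value as a covariate. In it 358 features (1.85%) were higher and 178 (0.92%) lower in the pristane mice. Of the 27 interferon genes 10 rose and none fell in it, among them Usp18 (2.19 ± 0.30), Oas1g (2.31 ± 0.31), Irf7 (1.87 ± 0.22), Oasl1 (1.25 ± 0.16), each with an adjusted p of 0.012, and Isg15. Ifit2 did not pass in it (0.79 ± 0.20, adjusted p = 0.0673), nor did Rsad2 (2.86 ± 1.16, adjusted p = 0.232). The separation of stimulus from sex in that fit rests on the 2 Xist-high irradiated mice. With that library kept, the same fit of 15 mice called 0 features, and Usp18 differed by 1.98 ± 0.30 (adjusted p = 0.172).

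**Figure D3:**
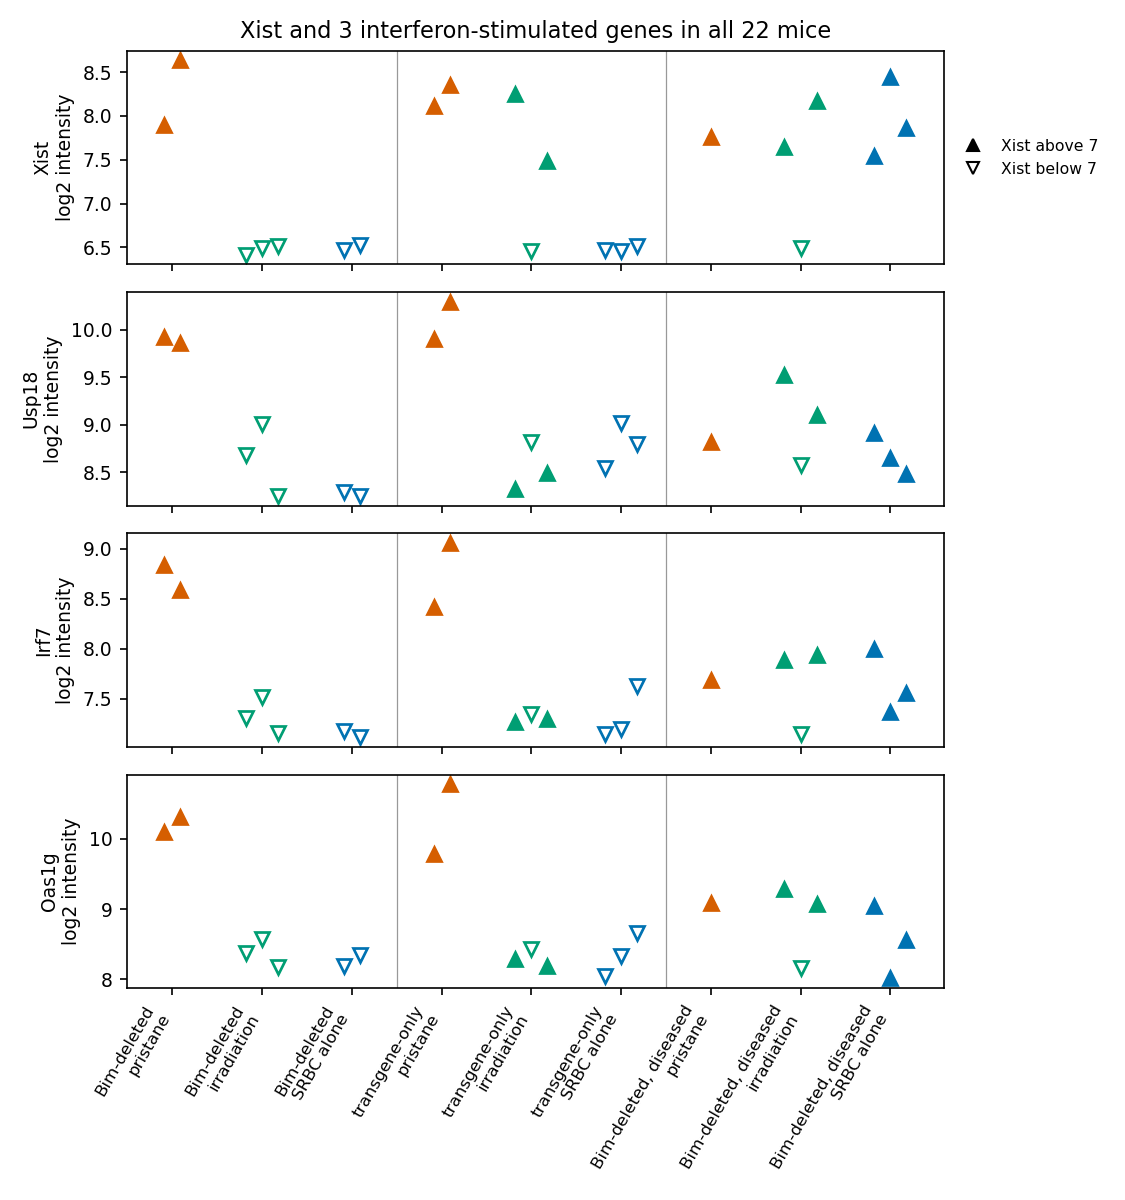
Log2 intensity (y axis) of Xist, Usp18, Irf7 and Oas1g in all 22 mice by genotype, disease and stimulus (x axis). Upward filled triangles are mice with Xist above 7 and downward open triangles mice with Xist below 7; orange is pristane, green irradiation and blue SRBC alone. The 4 disease-free pristane mice are the highest of all 22 in Usp18, Irf7 and Oas1g.

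The other named genes that rose with all 9 mice came from separate pathways. Alas1, the housekeeping enzyme that starts haem synthesis, was at 10.86 and 11.07 in the Bim-deleted and 10.67 and 10.78 in the transgene-only pristane mice, against 9.92 to 10.09 in the SRBC-alone mice (difference 0.83 ± 0.08, adjusted p = 0.0199). Gpr84, a receptor for medium-chain fatty acids on inflamed myeloid cells, was at 7.33 and 7.37 and at 7.03 and 7.09, against 6.47 to 6.63 (difference 0.63 ± 0.06, adjusted p = 0.0199). Both genes showed no overlap, and the irradiated Xist-high mice stood at 10.16 and 10.29 for Alas1 and at 6.68 and 6.70 for Gpr84. With the Xist level as a covariate in the 14 mice, Gpr84 rose by 0.56 ± 0.11 (adjusted p = 0.0338), and Alas1 did not pass (0.61 ± 0.26, adjusted p = 0.267). Napa, which recycles membrane-fusion complexes, rose by 0.25 ± 0.03 (adjusted p = 0.0385). Its other probes had pristane and SRBC-alone means of 7.02 and 7.03, and of 6.78 and 6.70. Disease-free Bim-deleted irradiated mouse 2 was at 7.997, above every pristane mouse. With the Xist covariate in the 14 mice Napa did not pass (0.34, adjusted p = 0.0641).

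Among the falls, Hs3st3b1, a heparan sulphate sulphotransferase, was at 7.17 to 7.46 in pristane mice, against 7.91 to 8.49 in SRBC-alone mice (difference -0.81 ± 0.09, adjusted p = 0.0417). Mapk12, the gamma isoform of the p38 kinases, was at 6.69 to 7.05, against 7.38 to 7.75 (difference -0.62 ± 0.07, adjusted p = 0.0417). Zfp748, a zinc finger gene, fell by 0.35 ± 0.04 (adjusted p = 0.0401). The 3 did not pass with the Xist level as a covariate in the 14 mice. Probe ILMN_2899599, unnamed here, had the largest fall among the features that passed with all 9 mice (difference -2.88 ± 0.22, adjusted p = 0.0125), and differed by -0.13 with the Xist covariate, as Eif2s3y did by -0.01. The next falling named genes by p, Dph2, Tef, Srpr, Rpl39, Ramp3 and F2r, did not pass (adjusted p 0.0725 to 0.0934). The transgene's own gene Ccnd1 differed by -0.24 ± 0.33 and the deleted gene Bcl2l11 by -0.13 ± 0.11 with all 9 mice. Without the library labelled transgene-only pristane 1 they differed by -0.56 and -0.03, and neither passed in either fit. Ccnd1 was at 10.10, 9.72, 11.01 and 9.39 in the pristane mice, the library labelled transgene-only pristane 1 being the highest of them.

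Beyond interferon, the 4 pristane libraries went 2 ways in the lists named next. Bim-deleted pristane 1 and 2 and transgene-only pristane 2 were high in genes of granulocytes, red cell precursors, megakaryocytes and cell division and low in genes of T and B cells. The library labelled transgene-only pristane 1 was at the opposite end in the neutrophil, erythroid and megakaryocyte lists. The arrays' first principal component, which held 57.4% of the variance, put these 3 at -37.5, -24.9 and -46.8 and that library at 31.8, beyond the SRBC-alone mice at 4.05 to 24.5. No member of these lists passed with all 9 mice. In whole spleen, fewer cells of a type and less RNA per cell cannot be told apart. With all 9 mice the median differences were 1.11 for neutrophil, 1.08 for erythroid, 0.74 for megakaryocyte, 0.94 for mitosis and 0.81 for DNA replication genes, and -1.04 for T cell, -0.84 for pan-B and -1.04 for MHC class II genes.

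Xist-high mice without pristane shared part of this, and so did some irradiated mice with low Xist. The erythroid level was 0.51 and 0.66 in the disease-free irradiated mice 1 and 3 named above, higher than in every disease-free SRBC-alone mouse, and 1.07 to 1.38 in the 3 diseased SRBC-alone mice, overlapping the 3 pristane mice. The neutrophil level was 0.21 and 0.51 in the irradiated pair and -0.71 to 0.41 in the diseased SRBC-alone mice, below the 3 pristane mice in all 5. The megakaryocyte level was -0.06 and 0.01 in the irradiated pair, inside the disease-free SRBC-alone range. The mitosis level was 0.10 and -0.12 in the irradiated pair and 0.34 to 0.54 in the diseased SRBC-alone mice. The DNA replication level was 0.04 and -0.09 in the irradiated pair and 0.43 to 0.655 in the diseased SRBC-alone mice. The latter range overlapped the 3 pristane mice, at 0.55 to 0.88. The T cell level was 0.02 and -0.39 in the irradiated pair, lower than in every disease-free SRBC-alone mouse, and -0.53 to -0.46 in the diseased SRBC-alone mice, level with Bim-deleted pristane 1. The pan-B level was 0.34 and 0.49 and the MHC class II level 0.59 and 0.66 in the irradiated pair, both inside the disease-free SRBC-alone range. The Xist-low disease-free irradiated mice were Bim-deleted 1, 2 and 3 and transgene-only 2. In that order their erythroid levels were 0.81, 0.20, 0.95 and 0.73. Their neutrophil levels were -0.655, -0.03, 0.74 and -0.28, and their T cell levels 0.31, -0.04, -0.48 and 0.11.

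**Figure D4:**
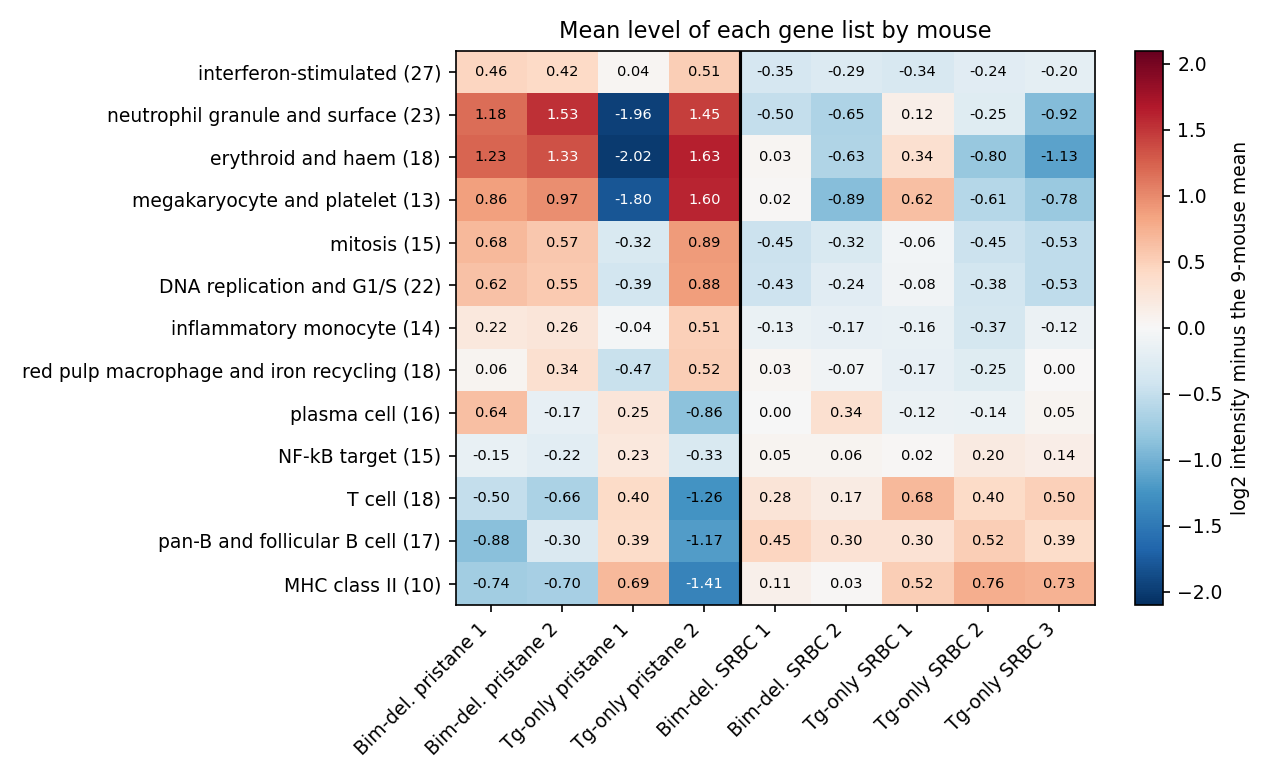
Mean log2 intensity of each gene list's measured members (number in brackets) minus the 9-mouse mean of each gene, by mouse; pristane mice left of the black line, SRBC-alone mice right of it. Transgene-only pristane 1 reads -1.96 for neutrophil genes and -2.02 for erythroid genes, where the other 3 pristane mice read 1.18 to 1.63.

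Neutrophil granule and surface genes rose in the 8 mice. Their mean level was 1.18 and 1.53 in Bim-deleted pristane 1 and 2, -1.96 and 1.45 in transgene-only pristane 1 and 2, and -0.92 to 0.12 in the SRBC-alone mice. Without the library at -1.96, 18 of 23 measured genes rose and none fell, with a median difference of 2.20. Prtn3, a protease of primary granules, was at 11.40, 12.26 and 12.58 in Bim-deleted pristane 1 and 2 and transgene-only pristane 2, against 8.10 to 9.51 in the SRBC-alone mice (difference 3.37 ± 0.38, adjusted p = 0.00444). It was at 6.54, the array's background, in transgene-only pristane 1. The primary granule genes Mpo, Ctsg and Elane, made at the promyelocyte stage, rose by 3.23, 3.14 and 2.97, and the secondary granule genes Ltf, Ngp and Lcn2, made later, by 2.87, 2.77 and 2.71. The late surface receptor Cxcr2 rose by 0.56 ± 0.09. Lyz2, shared with macrophages, was the only measured member with a negative difference in the 8 mice (-0.43, adjusted p = 0.169). With the Xist covariate in the 14 mice the median was 1.47 and none of the 23 passed (Ctsg 2.80, adjusted p = 0.0775).

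Erythroid genes also rose in the 8 mice. Their level was 1.23, 1.33, -2.02 and 1.63 in the pristane mice, in the order above, against -1.13 to 0.34 in the SRBC-alone mice. Without the library at -2.02, 12 of 18 rose and none fell (median 2.22). Klf1, the master regulator of red cell genes, was at 10.84, 10.44 and 11.28 in the remaining 3, against 6.82 to 9.46 (difference 2.87 ± 0.63, adjusted p = 0.0276). Tfrc, the transferrin receptor of red cell precursors, rose by 2.42 ± 0.54 (adjusted p = 0.0298), and Gata1, the lineage's transcription factor, by 1.36 ± 0.14 (adjusted p = 0.00352). Globin Hba-a1 was between 14.04 and 14.40 in these 8 mice, at the top of the array's range, and did not differ detectably (0.08 ± 0.08). With the Xist covariate in the 14 mice the median was 2.31 and 4 of the 18 rose: Hemgn, Rhag, Gata1 and Xpo7.

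Megakaryocyte and platelet genes rose in 8 of 13 cases without the same library and none fell (median 1.73). Nfe2, needed for platelet release, was at 11.55, 11.10 and 11.90, against 7.81 to 10.21 (difference 2.78 ± 0.59, adjusted p = 0.0256). Tubb1, the platelet tubulin, rose by 2.25 ± 0.53 (adjusted p = 0.035). Pf4 differed by 1.58 ± 0.59 and did not pass (adjusted p = 0.138). None of the 13 passed with the Xist covariate.

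Genes of basophils and mast cells moved less. Of 14 measured genes of eosinophils, basophils and mast cells, 5 rose without that library, beside 7.82% of all features. The 5 were Prss34 and Mcpt8, proteases of basophils, Fcer1a, the IgE receptor chain, Gata2 and Cpa3. Prss34 was at 8.18, 8.69 and 9.21, against 6.71 to 7.03 in the SRBC-alone mice (difference 1.95 ± 0.16, adjusted p = 0.00287). The eosinophil genes Epx, Prg2 and Ccr3 did not pass. None of the 14 genes passed with the Xist covariate in the 14 mice (Prss34 1.18, adjusted p = 0.147).

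Cell division genes rose together in the same 3 mice. Without the library, 13 of 15 mitosis genes and 19 of 22 genes of DNA replication and the entry into it rose, and none fell (medians 1.22 and 1.12). Birc5, an inhibitor of apoptosis needed for chromosome separation, was at 10.95, 10.88 and 11.35, against 8.86 to 9.61 in the SRBC-alone mice (difference 1.97 ± 0.19, adjusted p = 0.00352). Aurka, the spindle pole kinase, rose by 1.51 ± 0.13, Tk1, the thymidine kinase of dividing cells, by 1.70 ± 0.16 and Cdc6, which helps load the replicative helicase at origins, by 1.55 ± 0.16. In the library left out, Birc5 was at 9.13 and Tk1 at 8.27, inside the SRBC-alone ranges. With the Xist covariate in the 14 mice, 5 of the 15 and 7 of the 22 rose (medians 1.33 and 1.12), Tk1 by 1.88 and Cdc6 by 1.84, each with an adjusted p of 0.012.

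Monocyte and macrophage genes changed in part. The inflammatory monocyte level was 0.22, 0.26, -0.04 and 0.51 in the pristane mice, in the order above, against -0.37 to -0.12 in the SRBC-alone mice. Of 14 inflammatory monocyte genes, 5 rose without that library, led by Fcgr4, an activating IgG receptor (difference 2.11 ± 0.51, adjusted p = 0.0385), and F13a1, a coagulation factor made by monocytes (1.92 ± 0.32, adjusted p = 0.0116). Fcgr1, the high-affinity IgG receptor, was at 7.10, 7.06 and 7.47, against 6.59 to 6.70 in the SRBC-alone mice, and also rose with the Xist covariate (0.69, adjusted p = 0.026). No other of the 14 genes passed with that covariate (Fcgr4 adjusted p = 0.256, F13a1 adjusted p = 0.124). Hp, haptoglobin, which binds free haemoglobin, was at 10.61, 11.20, 9.12 and 11.12 in the 4 pristane mice, against 8.19 to 8.79 in the SRBC-alone mice. All 4 were above the SRBC-alone mice, and Hp rose by 2.61 ± 0.19 without the library (adjusted p = 0.00247) but did not pass with all 9 (2.09, adjusted p = 0.177). With the Xist covariate Hp did not pass (2.01, adjusted p = 0.0906). Of 18 red pulp macrophage and iron recycling genes, 3 rose and 1 fell without the library, beside 7.82% and 6.93% of all features. The 3 were Hp, the iron exporter Slc40a1 (0.47) and the haem oxygenase Hmox1 (0.84), and Timd4 fell by 0.65. Slc40a1 and Hmox1 were among the 9 spleen genes by which that library was set apart, so their rises depend on that choice. With all 9 mice they differed by -0.57 and 0.18 (adjusted p = 0.768 and 0.904). The red pulp macrophage genes Spic, Adgre1, Cd163 and Vcam1 did not pass. None of the 18 passed with the Xist covariate. Saa3, an acute-phase protein, was at 8.53, 10.29, 8.93 and 8.46, against 6.57 to 8.69 in the SRBC-alone mice, and did not pass in either fit. Of 32 cytokine and acute inflammation genes, 4 rose without the library (Il1b, Il1r2, Orm1 and Osm) and 2 fell (Ccl5 and Cxcl13), shares near the 7.82% and 6.93% of all features, while Il6, Il1a and Nos2 stayed near background in all 9 mice.

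Lymphocyte genes fell in the same 3 mice. The T cell level was -0.50, -0.66, 0.40 and -1.26 in the pristane mice, in the order above, against 0.17 to 0.68 in the SRBC-alone mice. Without the library at 0.40, 14 of 18 T cell genes fell and none rose (median -1.49). Cd8b1, a chain of the CD8 co-receptor, was at 10.17, 9.19 and 8.06, against 11.19 to 12.03 (difference -2.50 ± 0.46, adjusted p = 0.0164). It was at 11.07 in transgene-only pristane 1. The T cell receptor component Cd3e fell by 1.84 ± 0.37 (adjusted p = 0.0213) and the survival receptor Il7r by 1.68 ± 0.27 (adjusted p = 0.0106). None of the 18 passed with the Xist covariate in the 14 mice, where the median was -0.99.

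B cell genes followed. Without that library 13 of 17 pan-B and follicular genes and 7 of 10 MHC class II genes fell, and none rose (medians -1.23 and -1.53). Cd22, an inhibitory B cell receptor, was at 8.10, 9.21 and 7.82, against 9.97 to 10.50 in the SRBC-alone mice (difference -1.92 ± 0.31, adjusted p = 0.0103). Blnk, an adaptor of B cell receptor signalling, fell by 1.23 ± 0.12 and H2-DMa, which loads peptide on class II molecules, by 1.67 ± 0.16 (both adjusted p = 0.00352). Of 11 marginal zone B cell genes, 2 fell, beside 6.93% of all features, none rose, and the median was -0.06. The 2 were the Notch targets Dtx1 (-1.57) and Hes1 (-0.51). Both genes were below every SRBC-alone mouse in transgene-only pristane 1 too (8.44 and 7.245). The marginal zone list's level was -0.18 to -0.045 in all 4 pristane mice, against 0.05 to 0.19 in the SRBC-alone mice. Disease-free irradiated mice, given no pristane, were at -0.066, -0.066 and 0.051 (Bim-deleted) and 0.027, 0.176 and -0.017 (transgene-only). The first 2 of these lay inside the pristane range. With the Xist covariate in the 14 mice, 5 of the 17 and 3 of the 10 fell (medians -1.63 and -1.74). None of the 11 marginal zone genes passed in that fit. H2-Aa did not follow its list: it was at 6.63 in Bim-deleted pristane 2 and 6.91 and 6.93 in the Bim-deleted SRBC-alone mice, and at 8.61 to 11.08 in the other 6 mice. Of 15 NF-kB target genes, 7 fell and 1 rose without the library, Nfkbia, the inhibitor that NF-kB itself induces, falling by 0.75 and Tnfaip2 rising by 1.44 ± 0.20. With the Xist covariate in the 14 mice, 1 of the 15 fell and 1 rose. Of 16 plasma cell genes 4 fell without the library (Cd28, Irf4, Tnfrsf13b and Pou2af1), beside 6.93% of all features, and none rose. Sdc1, which marks plasma cells, differed by 0.15 (adjusted p = 0.498). None of the 16 passed with the Xist covariate in the 14 mice.

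**Figure D5:**
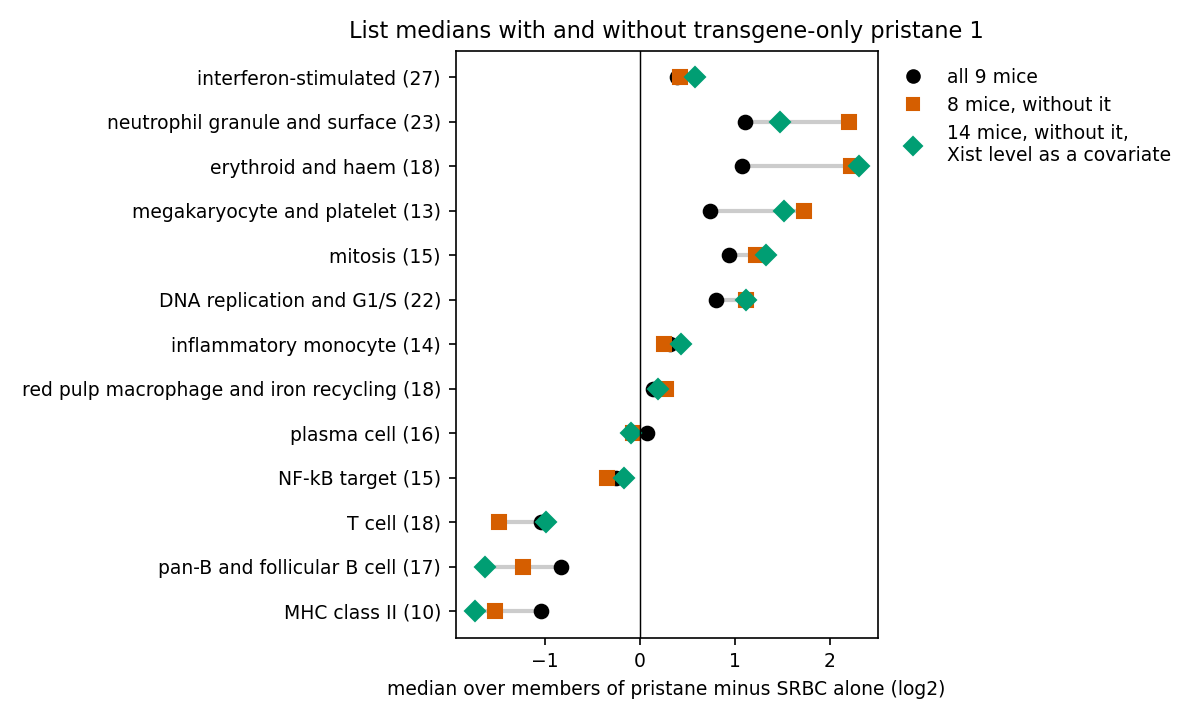
Median over list members of the difference pristane minus SRBC alone (x axis, log2) for 13 gene lists (y axis, number measured in brackets) in 3 fits: all 9 mice (black circles), 8 mice without the library labelled transgene-only pristane 1 (orange squares) and the 14 other disease-free mice with the Xist level as a covariate (green diamonds). The interferon median is 0.39, 0.43 and 0.58 in the 3 fits, and the erythroid median 1.08, 2.22 and 2.31.

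Each pristane mouse also had features of its own. Bim-deleted pristane 1 had 28.6% of features above and 28.5% below the range of the 5 SRBC-alone mice, Bim-deleted pristane 2 had 21.9% and 27.3%, transgene-only pristane 1 17.1% and 18.2%, and transgene-only pristane 2 25.7% and 30.2%. These shares follow from a single mouse set against 5 and carry no test. Cyp2b10, a drug-metabolising enzyme of liver, was at 11.53 in Bim-deleted pristane 1, against 6.41 to 6.53 in the other 3 pristane mice and 6.45 to 7.20 in the SRBC-alone mice. Pgam2, the muscle form of a glycolytic enzyme, was at 10.53 in the same mouse and at 6.53 to 7.25 in the other 8. Sel1l, which removes misfolded proteins from the endoplasmic reticulum, was at 12.02 there against 8.55 to 9.61. The plasma cell list was highest in this mouse (0.64, against -0.86 to 0.34 in the other 8), and Ighg1, an IgG heavy chain gene, was lowest in it (6.64).

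The genes furthest above the SRBC-alone range in Bim-deleted pristane 2 and transgene-only pristane 2 were both led by Prtn3, Isg15 and Ctsg. Bim-deleted pristane 2 added Chil1, a chitinase-like protein, and Hp, and transgene-only pristane 2 added Fpr2, a receptor for formylated peptides, and Elane. Transgene-only pristane 2 had the most features more than 1 log2 unit outside the SRBC-alone range (331 above and 264 below). Its homing chemokine genes were the lowest of the 9 mice: Cxcl13, which draws B cells to follicles, was at 8.17 against 11.38 to 11.72 in the SRBC-alone mice, and Ccl21a and Ccl19, which draw T cells, were at 8.12 and 7.53 against 11.15 to 12.66 and 10.51 to 11.21. In transgene-only pristane 1 the furthest genes were Glycam1, Mmp3, Cldn11, Gdf3 and Lum above, and Hba-a1, Hbb-bs, Hbb-bt, Alas2 and Slc40a1 below. Of these, Gdf3, a ligand of the TGF-beta family, was also above every SRBC-alone mouse in the other 3 pristane mice (8.25, 7.68, 9.03 and 8.76, in the order above, against 6.79 to 7.02). It rose by 1.41 without that library (adjusted p = 0.00916) and did not pass with all 9 (1.59, adjusted p = 0.0939). In Xist-high mice without pristane Gdf3 was also above the disease-free SRBC-alone mice. It was at 7.43 and 7.32 in transgene-only irradiated mice 1 and 3 and at 7.59 to 8.10 in the 3 diseased SRBC-alone mice. Diseased irradiated mice 1 and 3 were at 7.97 and 7.14.

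The genotypes were then taken apart. No feature passed within the Bim-deleted mice (2164 at an unadjusted p under 0.05, smallest adjusted p 0.0538), within the transgene-only mice (1261, 0.0986) or for the difference of the pristane effect between the genotypes (679, 0.394), by limma with 4 group means. Without the library labelled transgene-only pristane 1, 588 features passed within the Bim-deleted mice, 1533 within the transgene-only mice, where a single pristane mouse remained and was assumed to vary like the others, and 1 for the difference. The pristane difference of Usp18 was 1.62 in the Bim-deleted and 1.31 in the transgene-only mice, that of Irf7 1.57 and 1.42, and that of Oas1g 1.94 and 1.93, and none of these pairs differed past the threshold.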

How the data were processed

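Expression was measured on 22 arrays, 1 per mouse. The authors deposited normalized intensities without a stated scale, read here as log2 from their range, and every array holds the same distribution of values. The scanner software, background correction and normalization method were left unstated (not given in the sources used here). A table of unnormalized signals has 44 columns whose names match no mouse, and it was not used. Of 45281 probes, 34885 have 1 gene symbol in the platform annotation, 18 several and 10378 none. Probes above the 40th percentile of their array in at least 4 of the 9 arrays were kept (28136), and the brightest probe stood for each gene, which left 19339 features (13883 named genes and 5456 unnamed probes). Arrays limit the precision by their number, 4 against 5.

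Pristane minus SRBC alone was fitted with genotype as a covariate in limma 3.58.1 under R 4.3.3, with Benjamini-Hochberg adjustment over all features and a threshold of 0.05. The script was tested on simulated data. Single genes also had an exact permutation test over 126 allocations of the mice. Alternatives covered the model, filter, probes, weights, covariates and each mouse left out. Named were the leading passing genes in each direction, the smallest p in each list, the genes furthest from the SRBC-alone range in each pristane mouse, and the targeted and sex-linked genes. Other members named from the 8 mice, the fits without transgene-only pristane 1, the fits over 14 and 15 mice with Xist, and the 15 tissue genes were chosen after seeing the data. The comparison and its 34 gene lists (591 entries, 488 measured) were chosen with earlier results of these data known. No pairing by title number was seen: deviations of 12 same-numbered pairs correlated between -0.517 and 0.163. In groups of 2 mice the deviations mirror each other, so the 12 are not separate checks and cannot exclude pairing.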

Additional observations from a re-analysis of the deposited data

Results flagged for a closer look

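Within a group of 4 or 5 mice, a value was set aside for a closer look when its gap to the nearest other mouse took up most of the group's range (Dixon's test). Of 106 such tests on list levels and named genes, 11 were past the critical value, where chance gives about 1 in 20. The library labelled transgene-only pristane 1 was below the other 3 pristane mice in the neutrophil list (-1.962, against 1.179 to 1.530), the erythroid list (-2.016, against 1.225 to 1.634) and the MYC and ribosome biogenesis list (-0.140, against 0.039 to 0.064). It is also the library in which Nkx2-3 and Alas2 were at background, and the part of its tissue in these values was not tested.

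Transgene-only pristane 2 was above the other pristane mice in Usp18 (10.296, against 9.863 to 9.920) and below them in Mapk12 (6.694, the others reaching up to 7.046). Bim-deleted pristane 2 was above the others in the marginal zone B cell list (-0.045, against -0.176 to -0.155). Among the SRBC-alone mice, transgene-only mouse 3 was high in Irf7 (7.626, against 7.112 to 7.196) and transgene-only mouse 2 was low in the inflammatory monocyte list (-0.366, against -0.172 to -0.116). Bim-deleted SRBC-alone mouse 2 was low in Ccnd1 (9.622, against 10.375 to 10.618) and in the eosinophil, basophil and mast cell list (-0.203, against -0.108 to -0.070). Bim-deleted SRBC-alone mouse 1 was high in the pancreas and adipose list (0.267, against -0.134 to -0.020).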

How the results depend on the processing

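The count of 17 features with all 9 mice depended on single mice and on the model. Without 1 mouse it lay between 0 and 2853: it was 2853 without transgene-only pristane 1, 0 without transgene-only pristane 2, Bim-deleted SRBC-alone 1 or transgene-only SRBC-alone 3, 1 without Bim-deleted pristane 2, 2 without Bim-deleted pristane 1 or Bim-deleted SRBC-alone 2, and 4 without transgene-only SRBC-alone 1 or 2. With a further mouse left out of the 8, counts were 588 (without transgene-only pristane 2 too) to 2558. It was 10 with 4 group means, 244 with 15 disease-free mice, 3 with all 22 mice, 11 with an intensity trend, 104 with the erythroid and 45 with the neutrophil level as a covariate, and 0 with the Xist level or the first principal component as a covariate or with 15 mice and Xist. It was 588 without both transgene-only pristane mice, 3781 with 14 mice and 536 with 14 mice and Xist. The replicate block on title numbers, which were not seen to pair the mice, gave 2. No other filter, probe or weighting moved it beyond 13 to 21. Of the 17, 16 passed with 14 mice, Ifit2 being lost, and 7 of the 16 other than Xist with 14 mice and Xist.

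Within the Bim-deleted mice the count of 0 became 106 with all 22 mice and 0 to 588 with 1 mouse left out, the 588 arising without either transgene-only pristane mouse, whose spread then leaves the error estimate. Within the transgene-only mice it became 34 with all 22 mice and 0 to 1533 (without transgene-only pristane 1). For the difference between genotypes it was 0 with all 22 mice and 0 to 40 (without transgene-only pristane 2). Over the alternatives run, 929 list medians moved by less than the spread between mice and 52 by more. No named gene changed direction while called; the cause of the other changes was not tested.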
